A study of Bos taurus with 6 samples.

Results

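Solute carriers (SLC) are the membrane proteins that move nutrients, metabolites, ions and metals across cell and organelle membranes, and their genes are numbered by family (SLC2, SLC25) and by member (SLC25A13). All probes of a bovine oligonucleotide array (EMBV3) were taken whose platform annotation gives a gene symbol that starts with SLC, a family number and A. This rule found 393 probes of 291 genes, among 43794 probes and 15229 gene symbols on the array. Of the 393 probes, 303 were bright enough to test, 89 were too dim and 1 was on a spot that the image analysis marked to be ignored, so that 238 of the 291 genes had a tested probe. The rule used names only and no measured value. It also took in 4 genes that encode no carrier and are only named after one (SLC4A1AP, SLC7A6OS, SLC9A3R1 and SLC9A3R2), and it missed carriers whose symbols are built otherwise, such as the SLCO genes and SLC35B to SLC35F.

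The RNA came from oocytes of 3 Holstein cows, labelled as of the second parity, and the same 3 cows gave both groups. In each group a cow had received follicle-stimulating hormone (FSH) every 12 h for 3 days and then no FSH during 68 h of coasting, when follicles depend on the animal's own gonadotropins. The control group had coasting alone. In the antagonist group a blocker of the gonadotropin-releasing hormone (GnRH) receptor, cetrotide, was given during the whole of coasting; it lowers pituitary release of luteinizing hormone. At least a month separated both collections of a cow, and their order is not given in the sources used here. Oocytes were aspirated from the follicles of living cows, stripped mechanically of cumulus cells and pooled, so that each value stands for a pool, and the number of oocytes in a pool is likewise not given. Both RNAs of a cow were amplified and hybridised together on 2 arrays with the dyes exchanged, which gave 6 arrays. A ratio below is log2 of antagonist over control, averaged over both arrays of a cow, and every SD is over the 3 cows.

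A fully grown oocyte takes up pyruvate, amino acids and ions directly and receives other metabolites from its cumulus cells through gap junctions. It stores zinc and holds a very large number of mitochondria, whose inner membrane is crossed only through carriers. Most of these belong to family SLC25 and exchange ADP for ATP, import phosphate, and move citrate, aspartate, glutamate, acylcarnitines or cofactors. The plasma membrane families include the glucose carriers (SLC2), monocarboxylate carriers (SLC16), several amino acid families (SLC1, SLC6, SLC7, SLC38), bicarbonate and proton exchangers (SLC4, SLC9) and zinc importers (SLC39).

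Genes were sorted by the usual site of their family. There were 37 mitochondrial genes (SLC25), 185 genes of plasma membrane families, 31 of families of vesicles, Golgi and endoplasmic reticulum, and 34 of families with mixed sites. Some single members lie elsewhere than their family. SLC25A17 is a carrier of peroxisomes, SLC30A1 a zinc exporter of the plasma membrane in a mostly vesicular family, SLC9A9 a proton exchanger of endosomes, and SLC24A6 is the older symbol of SLC8B1, the sodium/calcium exchanger of the inner mitochondrial membrane, which was counted under its family number with the plasma membrane.

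Arrays and samples set the following limits. A reading was called above background when its raw spot signal exceeded the mean plus 2 SD of 152 negative control spots, and 55.8% to 77.5% of probes did so per array and dye. The labelled cell type showed in its markers, since 15 of 16 oocyte genes were above background in all 12 readings (6 of each group) and NOBOX in 8. Of 15 genes of granulosa and cumulus cells, STAR, HAS2, INHA, INHBA, GJA1 and PTX3 were above background in all 12 readings, and AMH, FOXL2 and CYP11A1 in 0. Of the 16 oocyte genes, 3 passed an unadjusted p under 0.05 as higher under antagonist and 1 as lower, against 8.57% and 6.57% of all genes. The oocyte genes had a median ratio of 0.19 (cow values 0.10, 0.20 and 0.10). Their summed level lay between 17.20 and 17.32 (log2) under antagonist and between 17.16 and 17.23 in control, and its part in the carrier ratios was not tested. None of the 11 tested granulosa and cumulus genes passed, where 15.1% of all genes did. The list had a summed level of 14.03 to 15.02 under antagonist and 14.15 to 14.94 in control. That sum rests mostly on STAR (mean log2 intensity 14.33, against 10.28 for HAS2, the next brightest) and hardly reflects the other genes. INHA had 0.20, -0.25 and 1.40 in cows 1 to 3, INHBA -0.40, 0.12 and 1.48, and the stromal gene VIM 0.33, -0.04 and 1.52, so that cow 3 was highest in each. Of 10 genes of theca and stroma 5, and of 6 of blood 2, were above background in all 12 readings, with DCN, LUM and PECAM1 so in 0, and VWF of the blood list passed as higher (0.17 ± 0.094). Theca and stroma genes summed to 12.14 to 12.78 under antagonist and 11.98 to 12.21 in control, and blood genes to 10.38 to 10.76 and 10.43 to 10.81. The part of such cells in the carrier ratios was not tested. In pooled oocytes a lower level can mean fewer cells that hold a transcript or less of it per cell, and these cannot be told apart.

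Mitochondrial carriers were the class most often detected, and plasma membrane families the least. Of the 37 SLC25 genes, 35 (94.6%) were bright enough to test and 29 (78.4%) were above background in all 12 readings. Of 184 plasma membrane genes with a usable probe, 143 (77.7%) were tested and 77 (41.8%) were above background in all 12, and 23 (12.5%) were above it in none. Over all 290 SLC genes with a usable probe these shares were 82.1%, 50% and 10%, and over all 15199 annotated genes 81.0%, 57.2% and 11.0%. The shares were not tested against each other, and a dim probe shows only that no signal was detectable with that probe.

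**Figure D1:**
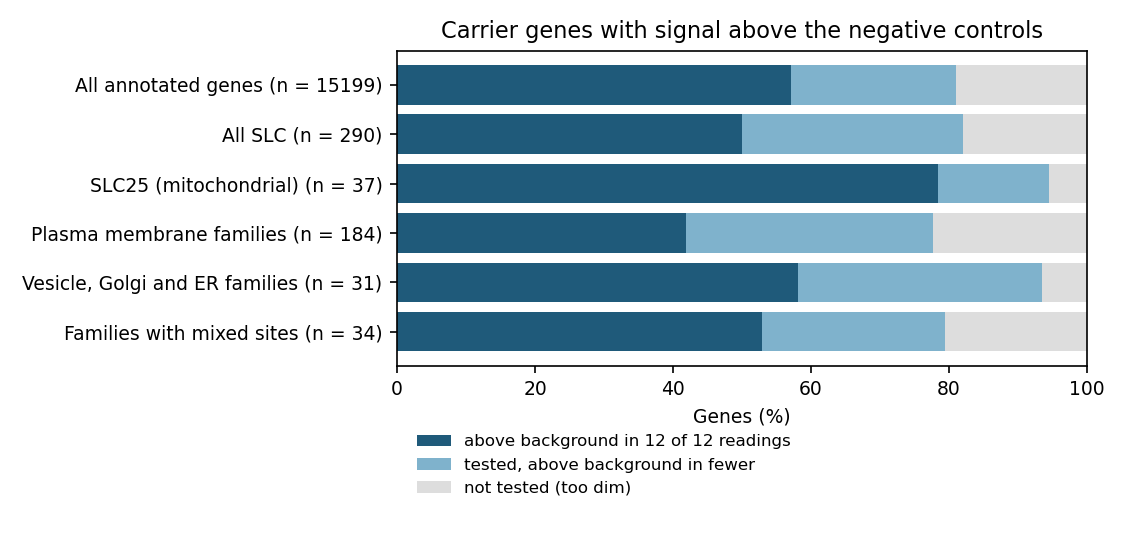
Share of genes in percent by the site of their SLC family, with the number of genes. Dark bars are genes above background in all 12 readings, light bars genes tested with fewer readings above it, and grey bars genes too dim to test; the dark part is 78.4% for SLC25 and 41.8% for plasma membrane families.

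Detection also differed among plasma membrane families. All 14 zinc importers of family SLC39 were tested, and 13 of them were above background in all 12 readings. All 5 cation-chloride cotransporters (SLC12) on the array were tested as well. In contrast 6 of 12 genes of the sodium-coupled glucose and vitamin family SLC5, 8 of 15 organic ion carriers (SLC22), 6 of 11 anion exchangers (SLC26) and 0 of 2 urea carriers (SLC14) were tested, and 5 SLC5 genes were above background in none of the readings. The 2 mitochondrial genes that were not tested, SLC25A41 and SLC25A46, were above background in no reading.

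In 12 SLC genes every reading was at least 10 times the background threshold. They include 6 members of SLC25, namely SLC25A4 (the heart and muscle ADP/ATP carrier), SLC25A13 (an aspartate/glutamate carrier), the peroxisomal SLC25A17, SLC25A26 (the S-adenosylmethionine carrier), SLC25A38 (a glycine carrier) and SLC25A44 (a carrier of branched-chain amino acids). The 5 of plasma membrane families are SLC1A4 (a neutral amino acid carrier), SLC4A7 (a sodium/bicarbonate cotransporter), SLC10A4, SLC16A13 and SLC28A1 (a concentrative nucleoside carrier). The twelfth is SLC4A1AP, which is no carrier. Signals of different probes do not rank their transcripts, so no order is given. No SLC gene was seen in only 1 group to any clear degree: probes of SLC6A17, SLC19A3 and SLC22A16 were above background in 3 antagonist and 0 control readings, with ratios of 0.00, 0.03 and 0.03.

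Between antagonist and control oocytes no SLC gene passed correction for the number of probes tested, and uncorrected calls were about as frequent as elsewhere on the array. With each gene represented by its brightest tested probe, 35 of 238 SLC genes (14.7%) had an unadjusted p under 0.05 by limma, 19 higher and 16 lower under antagonist. Of all 12314 genes 15.1% did, 8.57% higher and 6.57% lower. A change of at least 1.5-fold as well was shown by 4 SLC genes (1.68%), 2 higher and 2 lower, against 3.36% of all genes (2.76% higher and 0.601% lower). Counted over probes, 40 of 303 passed (13.2%, 21 higher and 19 lower), against 12.7% of all probes (6.72% higher and 6.02% lower), and 4 of these with 1.5-fold (1.32%, against 2.44%). No SLC probe had an adjusted p under 0.05, and none did on the whole array. In a fit of the 6 single arrays, with a dye term and with cow as replicate block (a random effect), 4 SLC probes had an adjusted p under 0.05 by limma: SLC31A2 (0.0284), SLC24A6 (0.0323), SLC4A1AP (0.0383) and a less bright probe of SLC25A38 (0.0496). That fit called 2.61% of all probes. It takes a cow's dye-exchanged arrays, which are repeats of the same RNAs, as separate values with an estimated correlation of 0.766, so the calls it adds rest in part on technical repeats.

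The ratios that the authors deposited for the same arrays gave nearly the same picture. Tested by limma in the same way, the authors' deposited table gave 35 of 238 SLC genes with an unadjusted p under 0.05, 18 higher and 17 lower, against 15.4% of all genes (8.67% higher and 6.72% lower). Of these 34 also passed with the ratios computed here and in the same direction, and 228 of the 238 genes had the same sign.

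The medians of both classes of carriers lay near 0. The median ratio was 0.0027 over the SLC genes (cow values -0.010, 0.016 and 0.0032) and 0.0044 over all genes. It was 0.019 over the 35 SLC25 genes (-0.0093, 0.040 and -0.012) and 0.0047 over the 143 plasma membrane genes (-1.0e-05, 0.016 and 0.013). SLC25 lay above the plasma membrane families by 0.014, and this difference had the cow values -0.0093, 0.024 and -0.024 and was positive on 3 of 6 arrays. A difference whose sign changes between cows is within their spread, and 3 cows allow no exact sign-flip p below 0.25.

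Single genes lay farther from 0 in SLC25 than in the plasma membrane families. The median size of the ratio, whatever its sign, was 0.10 in SLC25 genes, 0.045 in plasma membrane genes, 0.064 over SLC genes and 0.089 over all genes. Of SLC25 genes 10 of 35 (28.6%) passed the unadjusted threshold, 6 higher and 4 lower, and of plasma membrane genes 17 of 143 (11.9%), 11 higher and 6 lower, with 15.1% of all genes as the background. Probe brightness went with this, since the median normalised log2 intensity was 8.57 in SLC25 and 7.71 in plasma membrane genes. Among genes above background in all 12 readings, 9 of 29 SLC25 genes and 16 of 76 plasma membrane genes (21.1%) passed, against 19.5% of all such genes. With the fit itself limited to such probes the counts were 5 of 29 and 13 of 77, where 14.7% of all such probes passed. Without cows 1, 2 and 3 the SLC25 count was 9, 4 and 1 of 35, and the plasma membrane count was 28, 6 and 8 of 143. Of all probes 22.8%, 7.93% and 4.89% passed in these fits. The difference between the classes, and the part of brightness in it, was not tested.

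**Figure D2:**
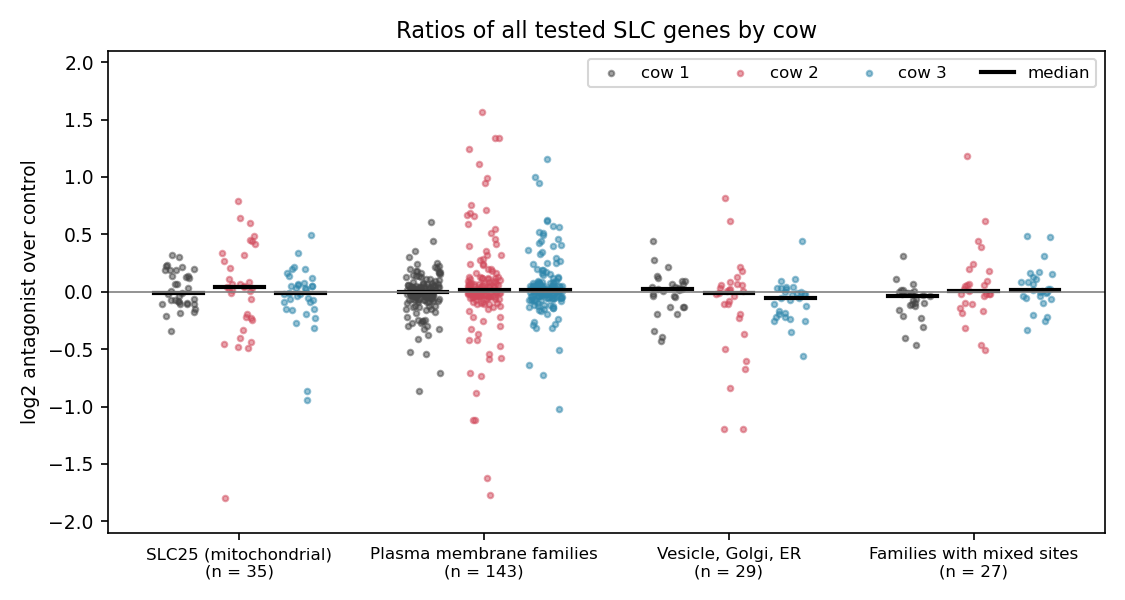
Ratios of all tested SLC genes as log2 antagonist over control, in columns by site of the family and by cow. Points are genes and black bars medians; the medians of SLC25 and of the plasma membrane families stay within 0.040 of 0 in each cow, and points spread widest in cow 2.

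Among the mitochondrial carriers, the ADP/ATP carriers did not share a direction. These carriers export the ATP made in mitochondria and are encoded by 4 genes, all tested. SLC25A6 had normalised log2 intensities of 7.84, 8.29 and 8.13 under antagonist in cows 1 to 3 and of 7.62, 7.87 and 7.64 in control. All 3 cows were higher under antagonist, as were all 6 arrays, although the antagonist value of cow 1 was below the control value of cow 2. All levels given in this text were normalised within arrays only, so those of different cows were not put on one scale. Overlap between groups, here and below, sets cows against each other across arrays and ignores the pairing. It was not counted over all genes and is description only. The ratio of SLC25A6 was 0.38 ± 0.14 (unadjusted p 0.00910). SLC25A5, the form of dividing cells, had a ratio of 0.26 ± 0.17 (cows 0.14, 0.45 and 0.20, p 0.0377), and its other probe gave 0.26. SLC25A4 gave -0.07 ± 0.27, with cow 1 above 0 and both others below, and did not pass.

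SLC25A31, known in mice as the ADP/ATP carrier of male germ cells, lay the other way. Its brightest probe read 11.90, 10.82 and 11.40 under antagonist and 12.00, 12.61 and 12.35 in control. Every antagonist value was below every control value and all 6 arrays were negative, yet the ratios of the cows were far apart (-0.10, -1.80 and -0.95), so that the mean of -0.95 ± 0.85 did not pass (p 0.0704). The other 2 probes of the gene gave -0.34 and -0.42. SLC25A6 was higher relative to SLC25A31 by 1.33 ± 0.95 and SLC25A5 by 1.21 ± 1.01, on 6 of 6 arrays each. These pairs were picked after their values were seen and are given without a test.

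Both aspartate/glutamate carriers, which serve the malate-aspartate shuttle, passed, in opposite directions. SLC25A13 read 12.01, 12.50 and 12.16 under antagonist and 11.82, 11.72 and 11.82 in control, without overlap between the groups. SLC25A12 read 11.25, 11.23 and 11.43 under antagonist and 11.47, 11.63 and 11.74 in control, again without overlap. The ratio was 0.44 ± 0.31 for SLC25A13 (p 0.0404) and -0.31 ± 0.10 for SLC25A12 (p 0.00741), each with its sign on all 6 arrays. Their difference, also picked after values were seen, was 0.41, 1.19 and 0.66 in the 3 cows.

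Other mitochondrial carriers with p under 0.05 moved by less than 1.5-fold. The citrate carrier SLC25A1, which supplies cytosolic acetyl-CoA, was higher (0.31 ± 0.17, p 0.0270), but 2 of its 6 control readings were not above background and its other probe gave 0.05. SLC25A30, related to the uncoupling proteins, was higher (0.17 ± 0.055), although its sign was positive on only 3 of 6 arrays, as was that of SLC25A44 (0.15 ± 0.079). Lower were SLC25A36, a carrier of pyrimidine nucleotides (-0.28 ± 0.18, p 0.0409), SLC25A17 of peroxisomes (-0.21 ± 0.13) and SLC25A20, which brings acylcarnitines in for fatty acid oxidation (-0.16 ± 0.064, p 0.0311).

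The remaining 25 SLC25 genes did not pass. The phosphate carrier SLC25A3, which feeds ATP synthesis, had the ratios -0.02, 0.00 and 0.03, and the oxoglutarate/malate carrier SLC25A11 had -0.07, 0.26 and -0.02. The probe of SLC25A3 was dim (mean log2 intensity 7.63), with its lowest reading at 1.01 times the background threshold. Its ratios near 0 therefore do not show that the transcript was unchanged. SLC25A26 gave 0.13 ± 0.47, and its 6 other tested probes ranged from -0.24 to 0.07. For SLC25A38 the brightest probe gave 0.13 ± 0.22 whereas another gave -0.35, with -0.26, -0.44 and -0.37 in the cows, so that its probes disagree in sign.

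**Figure D3:**
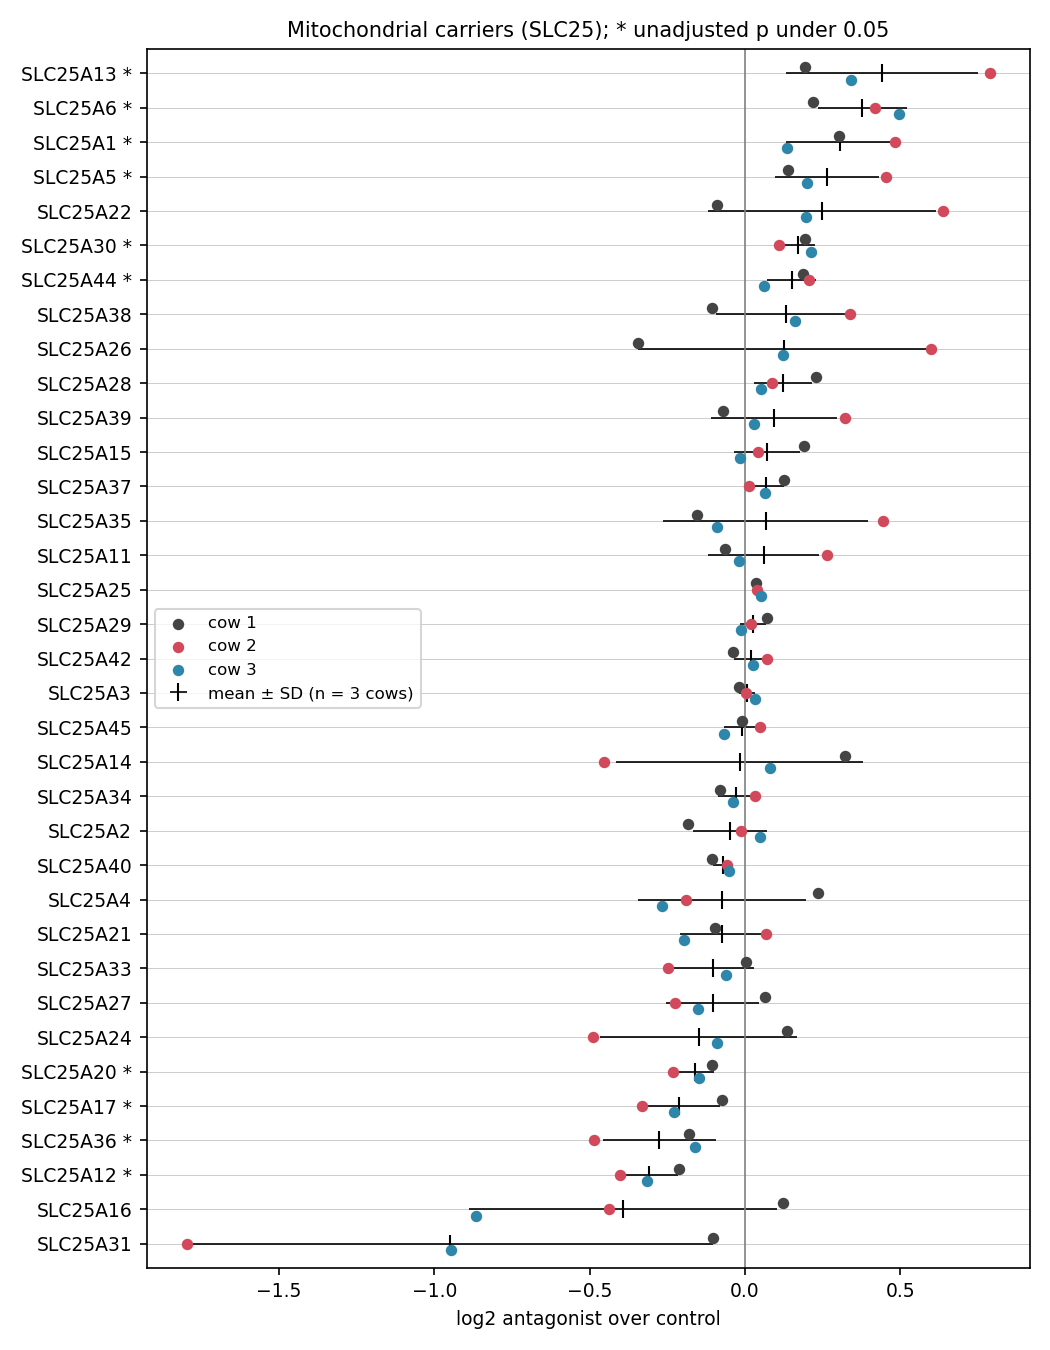
Ratios of the 35 tested mitochondrial carriers as log2 antagonist over control, 1 row per gene. Points are cows, the bar is the mean ± SD (n = 3 cows), and a star marks an unadjusted p under 0.05; SLC25A13 is at the top with 0.44 and SLC25A31 at the bottom with -0.95, where cow 2 lies farthest out.

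Mitochondria are also served by SLC24A6 (SLC8B1), which returns calcium from the matrix in exchange for sodium and had the highest ratio of all SLC genes. It read 8.03, 8.77 and 8.73 under antagonist and 7.43, 7.52 and 7.57 in control, with no overlap. The ratio was 1.004 ± 0.35 (cows 0.60, 1.25 and 1.16, p 0.00456), a mean 2.01-fold, positive on all 6 arrays, and in the authors' deposited table it was 1.001. All 6 antagonist readings but only 4 of 6 control readings were above background. The array holds 1 tested probe of this gene.

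Among carriers of glucose, pyruvate and lactate no gene passed. Of the glucose carriers (SLC2) 7 were tested. The widespread glucose carrier SLC2A1 was lower in cow 1 (-0.70) and higher in cows 2 and 3 (0.12 and 0.44), and SLC2A3, a high-affinity form, had -0.38, -0.48 and 0.36. SLC2A8 gave 0.02, 0.40 and 0.16. Of the monocarboxylate carriers (SLC16), which move pyruvate and lactate, 10 were tested. SLC16A1 had 0.13, -0.37 and -0.32. SLC16A3 gave -0.13 ± 0.11, a mean of opposite values: 0.57 over the arrays with control in Cy5 and -0.83 over those with antagonist in Cy5. SLC16A7 was too dim to test.

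Amino acid carriers gave 2 genes that passed, both higher. SLC7A3, a carrier of arginine and lysine, read 10.77, 10.58 and 10.28 under antagonist and 10.33, 10.06 and 10.15 in control, and its groups overlapped, although each cow was higher under antagonist (0.36 ± 0.21, p 0.0252). SLC1A1, a glutamate and cysteine carrier, had a ratio of 0.18 ± 0.061 (p 0.0236), positive on all 6 arrays. In family SLC7 1 of 10 tested genes passed, in SLC1 1 of 5, in SLC6 0 of 11 and in SLC38 0 of 8, where 15.1% of all genes did.

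The glycine carrier SLC6A9, which in mouse oocytes also serves volume control, had -0.07, 0.07 and 0.05. Its probe was above background in only 3 antagonist and 3 control readings, with the lowest reading at 0.89 times the background threshold. These small ratios therefore do not show that the transcript was unchanged. SLC38A2, a sodium-coupled carrier of neutral amino acids, had 0.00, -0.58 and 0.57, and SLC38A3 had -0.15, 0.67 and 0.40. The glutamine carrier SLC1A5 gave -0.02 ± 0.26 and the large neutral amino acid carrier SLC7A5 0.12 ± 0.35. The probe of SLC7A5 was above background in only 4 antagonist and 4 control readings, with its lowest reading at 0.85 times the threshold. SLC38A1 and SLC3A2, the heavy chain that SLC7A5 needs at the membrane, were too dim to test.

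Carriers of vitamins and nucleosides held pairs of related genes that lay apart. SLC19A1, the reduced folate carrier, read 8.69, 9.64 and 9.61 under antagonist and 8.51, 8.52 and 8.61 in control, with no overlap (0.77 ± 0.51, p 0.0324). SLC19A3, a thiamine carrier of the same family, read 7.69, 7.82 and 8.04 under antagonist and 8.23, 8.56 and 8.18 in control, also with no overlap (-0.47 ± 0.30, p 0.0311). A second probe of SLC19A3 gave 0.03, but it was above background in 3 readings only.

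The equilibrative nucleoside carrier SLC29A1 was higher under antagonist (0.27 ± 0.14, p 0.0245) and SLC29A2 lower (-0.52 ± 0.31, p 0.0261). Each kept its sign in all 3 cows and on 5 of 6 arrays, and the other probe of SLC29A2 gave 0.10. The difference within these pairs, picked after values were seen, was 1.24 ± 0.57 for SLC19A1 over SLC19A3 and 0.79 ± 0.24 for SLC29A1 over SLC29A2, on 6 of 6 arrays each.

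Ion carriers also passed. The phosphate importer SLC20A1 had 0.25, 0.28 and 0.40 (p 0.00548), and SLC12A2, the sodium-potassium-chloride cotransporter that loads cells with chloride, had 0.35, 0.20 and 0.30 (p 0.00758) and was positive on 5 of 6 arrays. The anion exchanger SLC26A6 was higher by more in cows 2 and 3 (0.22, 0.71 and 0.62, p 0.0167), as was SLC10A6, a carrier of sulphated steroids (0.15, 0.59 and 0.35, p 0.0291).

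Of 8 tested bicarbonate carriers (SLC4) 2 passed, both lower, against 6.57% of all genes. SLC4A7 read 11.33, 11.31 and 11.35 under antagonist and 11.65, 11.53 and 11.65 in control, so that the groups did not overlap. Its ratio was -0.28 ± 0.054 (p 0.00484), and its other 2 probes gave -0.34 and -0.14. SLC4A4, a second sodium/bicarbonate cotransporter, was also lower (-0.21 ± 0.096, p 0.0238). The anion exchanger SLC4A2 had 0.03, 0.02 and -0.06, with only 7 of 12 readings above background. The endosomal SLC9A9 was higher (0.20 ± 0.13, p 0.0457).

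Carriers of copper, magnesium and zinc were among those that passed. SLC31A2, which controls the release of copper from endosomes and lysosomes, had the smallest p of the SLC genes (0.00178). It read 11.56, 11.22 and 11.41 under antagonist and 12.02, 11.68 and 11.74 in control, without overlap, and its ratio was -0.42 ± 0.073. The related copper importer SLC31A1 had 0.31, -0.02 and 0.13. SLC41A2, a magnesium carrier, was lower (-0.30 ± 0.19, p 0.0392), whereas iron was represented by its exporter SLC40A1, which had -0.24, -1.12 and -0.13 and did not pass.

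Of 14 zinc importers (SLC39), 1 passed as higher and 2 as lower (21.4%, against 15.1% of all genes). SLC39A8, which also carries manganese, read 8.10, 7.85 and 7.53 under antagonist and 8.35, 8.96 and 8.17 in control, with no overlap (-0.67 ± 0.43, p 0.0306). SLC39A1 was lower by little (-0.15 ± 0.047) and SLC39A7, which releases zinc from the endoplasmic reticulum, higher by little (0.17 ± 0.033). SLC39A6 and SLC39A10, zinc importers known from maturing mouse oocytes, gave 0.03 ± 0.12 and -0.21 ± 0.45. The lowest reading of SLC39A6 was only 1.09 times the background threshold. The zinc exporter SLC30A1 was lower (-0.21 ± 0.14, p 0.0496), with 9 of 12 readings above background, and was the 1 of 8 SLC30 genes that passed.

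Carriers of the Golgi, of vesicles and of choline gave 3 further genes that passed. SLC35A1 imports CMP-sialic acid into the Golgi for glycoprotein synthesis. It read 10.87, 10.57 and 11.23 under antagonist and 11.30, 11.76 and 11.78 in control, with no overlap, and its ratio was -0.73 ± 0.41 (p 0.0207). Also lower was SLC17A1, a phosphate and urate carrier in a mostly vesicular family, which had -0.39, -0.20 and -0.24 (p 0.0125). The choline-like carrier SLC44A5 had -0.07, -0.31 and -0.22 (p 0.0423). The peptide carrier SLC15A1 was higher by 0.13 ± 0.040.

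**Figure D4:**
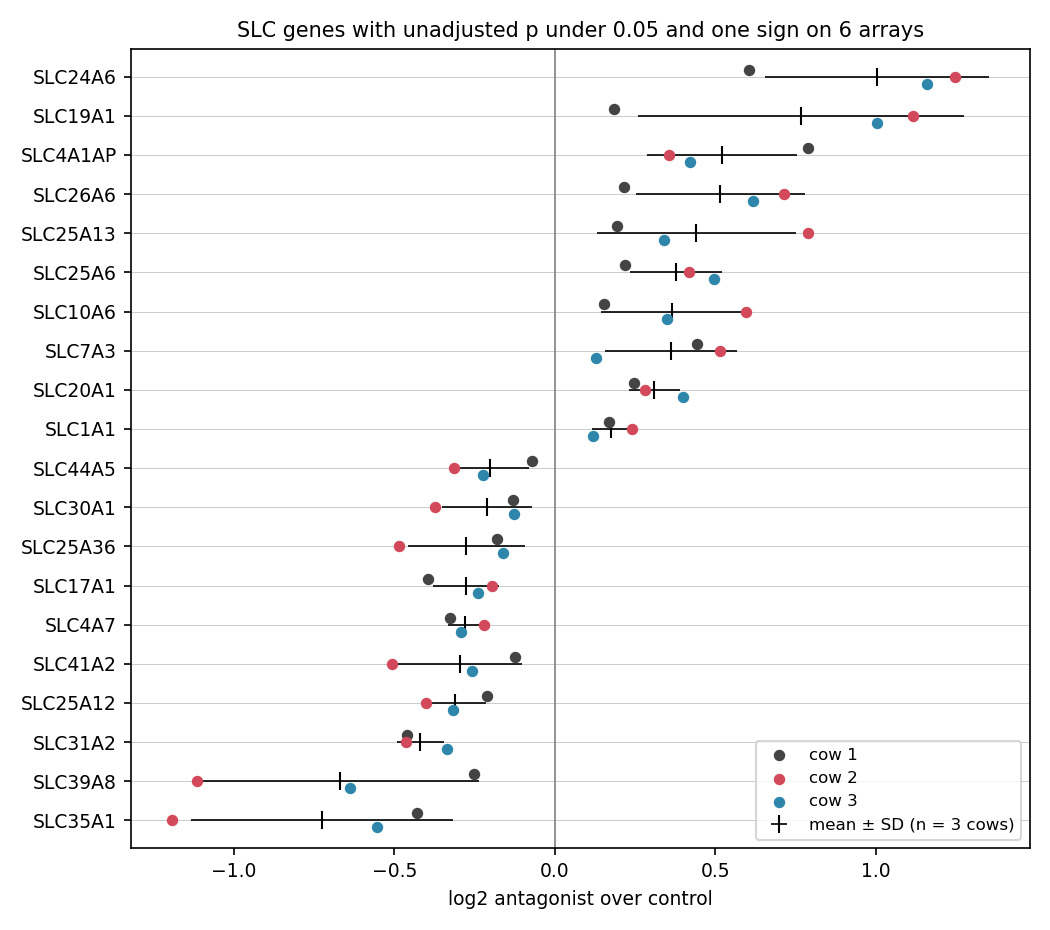
Ratios of the 20 named SLC genes with an unadjusted p under 0.05 and the same sign on all 6 arrays, as log2 antagonist over control. Points are cows and bars the mean ± SD (n = 3 cows); SLC24A6 is highest with 1.004 and SLC35A1 lowest with -0.73, and the cows lie close together for SLC31A2, SLC4A7 and SLC20A1.

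Of the 4 genes named after a carrier, SLC4A1AP passed. It encodes kanadaptin, named for its binding to an anion exchanger, and read 12.71, 12.18 and 12.25 under antagonist and 11.93, 11.82 and 11.83 in control, with no overlap (0.52 ± 0.23, p 0.0116). The other three (SLC7A6OS and the scaffold genes SLC9A3R1 and SLC9A3R2) had ratios of -0.14, -0.01 and -0.06.

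In 6 SLC genes the mean ratio exceeded 1.5-fold without passing, and the cows were far apart. Altogether 10 SLC genes exceeded that size and 4 of them passed. In all 6 others the ratio of cow 2 was farthest from 0 and that of cow 1 nearest to it. These counts were not made over all genes, whose ratios also spread widest in cow 2 and least in cow 1 (SD 0.48 and 0.23). SLC6A4, the serotonin carrier, had 0.11, 1.56 and 0.95, and its other probe gave 0.46. SLC7A6, an exchanger of cationic and neutral amino acids, had 0.07, 1.34 and 0.63, but its other 2 probes gave -0.03 and -0.0023. The zinc carrier SLC39A13 had 0.07, 1.34 and 0.56.

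Lower by the same pattern were the carnitine importer SLC22A5 (-0.08, -1.77 and -0.73), the zinc importer SLC39A12 (-0.12, -1.62 and -1.02) and SLC25A31. These genes were listed after their values were seen. That choice favours genes whose cows are far apart. An F-test of equal cows was fitted by limma over all probes with a dye term; it sets the spread between cows only against that between dye-exchanged repeats of the same RNA. Its adjusted p was under 0.05 for 102 of 238 SLC genes (42.9%), against 54.5% of all genes, for 21 of 35 SLC25 genes and for 51 of 143 plasma membrane genes. The SD of the ratios over SLC genes was 0.18, 0.43 and 0.25 in cows 1 to 3, and over all genes 0.23, 0.48 and 0.31.

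**Figure D5:**
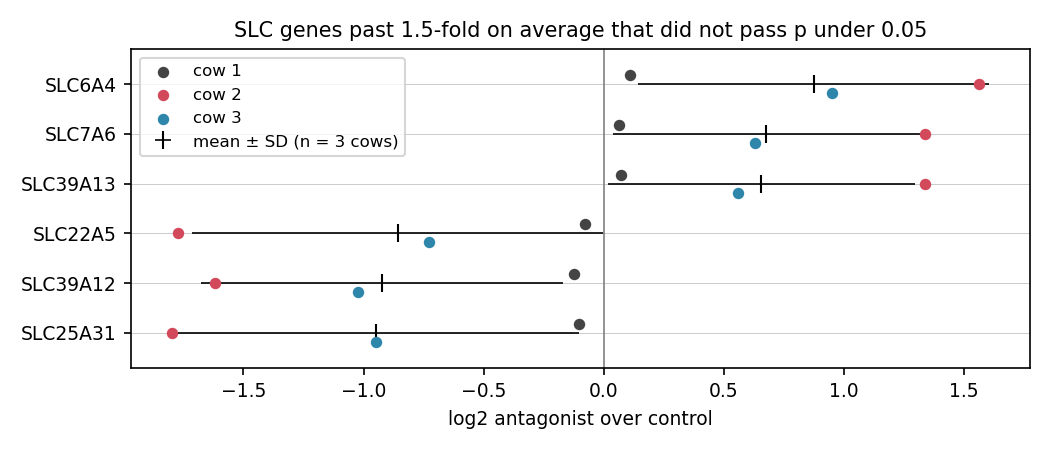
Ratios of the 6 SLC genes whose mean exceeded 1.5-fold without an unadjusted p under 0.05, as log2 antagonist over control. Points are cows and bars the mean ± SD (n = 3 cows); cow 1 lies near 0 in each gene and cow 2 farthest out, up to 1.56 for SLC6A4 and down to -1.80 for SLC25A31.

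Signs held across cows about as often among carriers as elsewhere. The same sign in all 3 cows was seen in 86 of 238 SLC genes (36.1%), against 37.7% of all genes, and on all 6 arrays in 30 (12.6%), against 14.8%. In 61 SLC genes (25.6%, against 21.7% of all genes) the sign followed the dye orientation on every array. Of 48 SLC genes with more than 1 tested probe, the other probes all had the sign of the brightest in 27.

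Of the 35 SLC genes that passed, 10 were positive and 11 negative on all 6 arrays, and the rest had an array of the opposite sign. Of the latter, SLC4A4, SLC9A9, SLC39A7, SLC19A3, SLC25A1, SLC25A5, SLC25A17 and SLC25A20 kept their sign on 5 arrays and SLC15A1 on 4. Fits without a cow were read for the 23 passing genes named by rule or by role, and not for the other genes of the 35. Most of these 23 calls depended on which cows were in the fit. Of the 23 genes, 17 still had an unadjusted p under 0.05 by limma without cow 1, 10 without cow 2 and 7 without cow 3. Without any 1 of the cows, 5 of the 23 kept the call in every case: SLC24A6, SLC4A1AP, SLC20A1, SLC31A2 and SLC4A7. The others of the 23 lost it at least once, with p up to 0.175 and no change of sign. Without cow 3 these included SLC19A1 (0.65), SLC25A13 (0.49), SLC25A6 (0.32), SLC35A1 (-0.81), SLC39A8 (-0.68) and SLC25A12 (-0.31), and without cow 2 SLC19A1 (0.59), SLC7A3 (0.29), SLC39A8 (-0.45) and SLC25A1 (0.22).

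Other transport genes without an SLC name, many of which serve carriers, were counted from a list of 39 symbols. The list held older and newer symbols of some genes. On the array were 27 of the symbols, and 24 had a tested probe. Of the 24, 4 passed as higher, 3 as lower and 17 did not (29.2% passed, against 15.1% of all genes, 8.57% higher and 6.57% lower). The probes were bright, since 23 of the 24 genes were above background in all 12 readings. Of all such genes on the array 19.5% passed. The median ratio was -0.17 (cows 0.10, -0.31 and -0.10), against 0.0044 over all genes, and neither difference was tested. The list also held the mitochondrial pyruvate carrier, as BRP44L (MPC1, -0.21 ± 0.49) and BRP44 (MPC2, -0.27 ± 0.33), and the channels VDAC1 and VDAC2. None of these passed. BSG, the chaperone that brings monocarboxylate carriers to the plasma membrane, was higher (1.02 ± 0.59, p 0.0208), as was NEDD4L, a ubiquitin ligase of ion carriers (0.25 ± 0.10). NPTN, also on the list, had 0.21, -1.12 and -0.58 and did not pass (-0.50 ± 0.67). The other 2 probes of NPTN gave -0.24 and -0.07. Small chaperones of the space between the mitochondrial membranes, which guide SLC25 proteins to their import site, lay on both sides. TIMM13 and TIMM10 were higher (0.45 ± 0.11 and 0.25 ± 0.11), with 0.32 for the other probe of TIMM13, and TIMM9 and TIMM8B lower (-0.77 ± 0.58 and -0.36 ± 0.18). The outer membrane import receptor TOMM22 was lower (-0.18 ± 0.038), but its other probe gave 0.13.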

How the data were processed

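Oocyte RNA of 3 cows was measured on 6 arrays of 2 channels, 2 arrays per cow with dyes exchanged; the labels gave group and cow of each channel. The deposited scanner files hold raw spot intensity with local background, per the file headers. The authors also deposited log2 ratios per probe and array, which set against the scanner values were already antagonist over control on every array (r over probes 0.992 to 0.996, column medians -0.0027 to 0.0018); how they were normalized is not given in the sources used here.

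Intensities were corrected by normexp (offset 50) and normalized by loess within arrays in limma 3.58.1 under R 4.3.3, with control spots at weight 0 and 105 ignored spots left out. A probe needed 3 of 6 readings above background (defined in the text) in 1 group or the other; 32527 were tested. The mean of each cow's arrays was taken and these 3 means tested against 0 (lmFit, eBayes, two-sided, Benjamini-Hochberg over all 32527 probes). Differences between cows and the dye term came from a fit of the 6 arrays. Probe intensities, not read depth, set the precision: median raw intensity was 191 to 277, against background thresholds of 171 to 247.

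Symbols came from the platform annotation; 288 of the 291 are current in RefSeq and 3 are synonyms there. Each gene was represented by its brightest tested probe. Named were up to 12 positive and up to 10 negative ratios of largest size with p under 0.05 and 1 sign on 6 arrays, which gave 10 of each, and 26 carriers listed by role, 22 of them tested and 1 not reported here; other names were chosen after values were seen. The members and lists were chosen with earlier results of these data known. The fit of the 3 cow means was tested on simulated data, with spreads and dye effects taken from these arrays. The fits of single arrays were not tested in this way. The labels say each cow was its own control, so samples are paired by animal. Slides were inferred from scanner file names: 3 slides, 1 with 4 arrays. That shared slide held every array with antagonist in Cy5 and, of those with control in Cy5, only that of cow 2. Dye orientation and slide therefore cannot be told apart in cows 1 and 3.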

Additional observations from a re-analysis of the deposited data

How the results depend on the processing

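Named genes and counts were recomputed under other background corrections, normalizations, filters, pairings, dye orientations, slides and with each cow left out. The 40 SLC probes with p under 0.05 became 26 of 182 with the filter of all 12 readings (14.7% of all such probes passed), 25 of 303 without a replicate block and with unpaired conditions (9.41%), 89 on arrays with control in Cy5 (31.4%), 78 on those with antagonist in Cy5 (28.9%), and 59, 18 and 13 without cows 1, 2 and 3 (22.8%, 7.93% and 4.89%). The split of 21 higher and 19 lower was 17 higher of 40 under median centring without loess. Adjusted counts were 4 with cow as replicate block and 1 (SLC24A6) unpaired, against 0 otherwise. The count with 1.5-fold was 4 of 303 at first, where 2.44% of all probes passed. With the share of all probes in brackets, it was 10 with the replicate block (3.47%) and 10 unpaired (3.41%). By dye orientation it was 14 with control in Cy5 (6.98%) and 13 with antagonist in Cy5 (5.07%). It was 10 on the shared slide (3.36%), and 18, 2 and 3 without cows 1, 2 and 3 (7.43%, 1.33% and 1.39%). The SLC median of 0.0027 was 0.022 under median centring and 0.028 with control in Cy5. The plasma membrane median was 0.024 and 0.031 there and ranged from 0.0023 (without cow 2) to 0.015 (without cow 1) with a cow left out. The SLC25 median was -0.012 on the shared slide and -0.016 to 0.023 with a cow left out. SLC25 minus plasma membrane was -0.016 with the mean of all probes of a gene and -0.018 to 0.013 with a cow left out. Added after seeing the data, the SLC25 count of 10 was 5 with the filter of all 12 readings, 5 unpaired and 1 to 9 with a cow left out. The plasma membrane count of 17 was 29 with the replicate block, 36 and 34 by dye orientation, and 6 to 28 with a cow left out. For both classes the shares of all probes with p under 0.05 are those given above for the same settings. With the replicate block that share was 18.4%. By dye orientation SLC16A3 (-0.13) was 0.57 with control in Cy5 and SLC6A9 (0.02) was -0.25 with antagonist in Cy5. Of 388 values recomputed for the 23 named genes that passed, 0 changed sign and 71 lost p under 0.05; of 301 for the named genes that did not pass, 33 changed sign and 17 passed. SLC4A1AP and SLC31A2 passed under all 17 alternatives, and SLC4A7 and SLC24A6 under the 16 that gave them a p, whereas SLC30A1 lost its call under 8 and SLC44A5 under 7. The causes were not tested.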
